A study of Mus musculus with 8 samples.

Results

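The complement components described here are 9 mouse genes, C1qa, C1qb, C1qc, C3, C4b, Serping1, Itgam, C3ar1 and C5ar1, taken by symbol from the count tables of 8 sn-RNAseq libraries of the hippocampus. They hold 10 of the 30211 rows of those tables, because Itgam is listed under 2 gene identifiers. Each library came from 1 mouse, and all mice were C57BL/6 by their labels (C57BL/6N in the study's methods): 3 wild-type (WT) and 3 Gsap-/- (GKO) mice aged 7 mo, and a single J20;WT and a single J20;GKO mouse, both aged 6 mo. GKO mice lack Gsap, the gene for the gamma-secretase activating protein, through removal of internal exons by a Cre recombinase driven from the CMV promoter and therefore in every tissue. J20 mice carry a human APP transgene with the Swedish and Indiana mutations under the PDGFB promoter, which is mostly active in neurons, and serve as a model of amyloid disease. Levels are given in CPM, the unique molecular identifiers (UMIs) of a gene in every 1000000 UMIs of all nuclei of one cell type in one library, and they are compared between cell types and libraries within a gene, not between genes.

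The complement system tags cells, microbes and debris for removal. Its classical arm starts with C1q, a complex built from the A, B and C chains that C1qa, C1qb and C1qc encode, and it goes on through C4 (C4b) to C3, whose fragments are bound by phagocytes through complement receptor 3, an integrin with Itgam as its alpha chain, and through the C3a receptor C3ar1. C5ar1 is the receptor for C5a, and Serping1 encodes the C1 inhibitor that restrains the first step. In the brain microglia are the known main source of C1q, and the C1q, C3 and complement receptor 3 route is known for its part in synapse removal.

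After filtering, the libraries held 2731 to 5252 nuclei and 21020159 to 43310978 UMIs each, with a median of 4579 to 6438.5 UMIs per nucleus. Nuclei were assigned to cell types by marker genes that include none of the 9 components, which gave 2073 microglia, 2707 astrocytes, 7089 oligodendrocytes, 1076 OPCs, 12173 excitatory and 1831 inhibitory neurons, 143 fibroblast, 105 mural and 52 border macrophage nuclei among the larger or more relevant groups. All 11 microglial and all 7 border macrophage markers were highest in their own type, but only 3 of 7 excitatory markers were. Pairs of libraries shared 2 to 27 barcodes. Gsap reads did not separate the groups: microglia held 262, 189 and 212 Gsap CPM in WT and 203, 193 and 181 CPM in the libraries labelled GKO. The count of a gene does not tell the removed exons from the rest, so this is no check of the labels. The study itself reported loss of the exons and lower Gsap mRNA in GKO mice by PCR. The first WT and the first GKO library carry another date than the other 4 and both, like J20;GKO, had high Xist (3155, 3228 and 2945 CPM in microglia, and 0 in the other 5 libraries). Among the WT and GKO libraries date and Xist therefore cannot be told apart.

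The 3 C1q genes lie side by side on the minus strand of chromosome 4 (GRCm38, chr4:136880129-136898803), in 18.7 kb. RefSeq promoter sequences of the same build were at hand for 6 of the 9 components. They were searched on both strands over the 250 bases before the start for GAGGAA, the core letters that the myeloid factor PU.1 is known to bind, which 23.3% of 32851 such windows hold. The letters occurred once in C1qb and once in C1qc, at 2 places in Itgam and nowhere in C3, C3ar1 and C5ar1. The windows of 3 genes with most of their UMIs in microglia are shown because they differ in this: C1qb (chr4:136886201-136886450, minus strand) with a match 30 bases before the start, Itgam (chr7:128062390-128062639, plus strand) with matches at 84 and 15 bases before it, and C3ar1 (chr6:122856158-122856407, minus strand) with none. Capitals mark GAGGAA or its reverse complement.
C1qb: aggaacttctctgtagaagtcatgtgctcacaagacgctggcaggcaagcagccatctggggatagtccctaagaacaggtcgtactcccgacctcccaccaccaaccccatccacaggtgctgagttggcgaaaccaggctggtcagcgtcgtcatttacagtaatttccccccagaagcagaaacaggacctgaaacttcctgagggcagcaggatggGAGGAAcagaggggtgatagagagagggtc
Itgam: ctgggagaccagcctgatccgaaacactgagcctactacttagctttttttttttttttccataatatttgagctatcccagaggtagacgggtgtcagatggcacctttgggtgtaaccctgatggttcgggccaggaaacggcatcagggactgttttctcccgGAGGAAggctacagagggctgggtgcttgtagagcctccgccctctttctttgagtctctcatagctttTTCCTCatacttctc
C3ar1: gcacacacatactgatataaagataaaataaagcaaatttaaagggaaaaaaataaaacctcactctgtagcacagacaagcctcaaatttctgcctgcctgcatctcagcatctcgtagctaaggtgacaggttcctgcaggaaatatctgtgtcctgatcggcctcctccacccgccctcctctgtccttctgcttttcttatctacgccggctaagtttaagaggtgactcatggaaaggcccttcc

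C1q transcripts were concentrated in microglia. Microglia held 82.1% of all C1qa UMIs (14140 of 17221), 80.8% of C1qb and 81.8% of C1qc UMIs. In microglia, C1qa stood at 1761, 4645 and 4265 CPM in the WT, 1431, 2142 and 3538 CPM in the GKO, 4867 CPM in the J20;WT and 5360 CPM in the J20;GKO library, a mean of 3501 ± 1529 CPM (SD, n = 8). In the 9 other types with at least 10 nuclei in 4 or more libraries, which leave out border macrophages, the means ran from 1.44 CPM in choroid plexus to 19.2 CPM in Cajal-Retzius cells. C1qb reached 2803 ± 1073 CPM in microglia and at most 22.7 ± 32.6 CPM in these 9 types, in mural nuclei. That mural mean rests on 3 UMIs in WT 1 and 1 in GKO 2. C1qc reached 2144 ± 784 CPM in microglia and at most 7.64 CPM in these 9 types, in oligodendrocytes. Of the 9 types, those next to each other in the order below microglia did not differ beyond their spread, except excitatory neurons over choroid plexus for C1qb.

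Set against all other gated nuclei of the same libraries, microglia were higher for each C1q chain. The log2 fold change was 8.10 ± 0.17 (SE) for C1qa, 8.01 ± 0.19 for C1qb and 8.13 ± 0.19 for C1qc, with adjusted p of 7.66e-37, 1.03e-22 and 4.72e-22 (edgeR quasi-likelihood test, Benjamini-Hochberg adjustment over all genes, n = 8 libraries). Of the 9 components tested in this contrast, 6 were higher in microglia, C4b and Serping1 were lower, and C3 passed in neither direction. Over all 18554 genes tested, 26.1% were called higher and 40.3% lower.

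In droplet data UMIs of abundant transcripts also occur in nuclei of types that do not make them, so shares are set beside those of other types. With each nucleus thinned to 1000 UMIs, 80.4% of 2031 microglia had a C1qa UMI (95% exact binomial interval 78.6% to 82.1%, counting error only), and 0.527% of 12153 excitatory neurons and 0.539% of 2597 astrocytes did. Before thinning, microglia had a median of 1666 to 2295.5 UMIs per library and astrocytes 3203.5 to 4585.5. In some libraries a single nucleus held much of the low C1qa level in inhibitory neurons. In WT 3, 1 inhibitory nucleus had 28 of 48 C1qa UMIs, in J20;GKO 1 had 20 of 38 and in WT 2 1 had 12 of 21. In WT 1, GKO 1, GKO 2, GKO 3 and J20;WT the highest inhibitory nucleus had 3 of 24, 4 of 15, 2 of 17, 2 of 19 and 1 of 10. In excitatory neurons the highest nucleus had from 8 of 95 in GKO 1 to 27 of 114 in J20;WT. The source of these UMIs was not tested. The share of microglia with UMIs of all 3 chains ran from 56.6% in the first GKO library to 91.9% in J20;GKO, and the share with none from 0.386% to 3.31%. The 736 nuclei with markers of more than 1 type, left out of all comparisons, held C1qa at 167 ± 66.1 CPM (SD, n = 8).

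**Figure D1:**
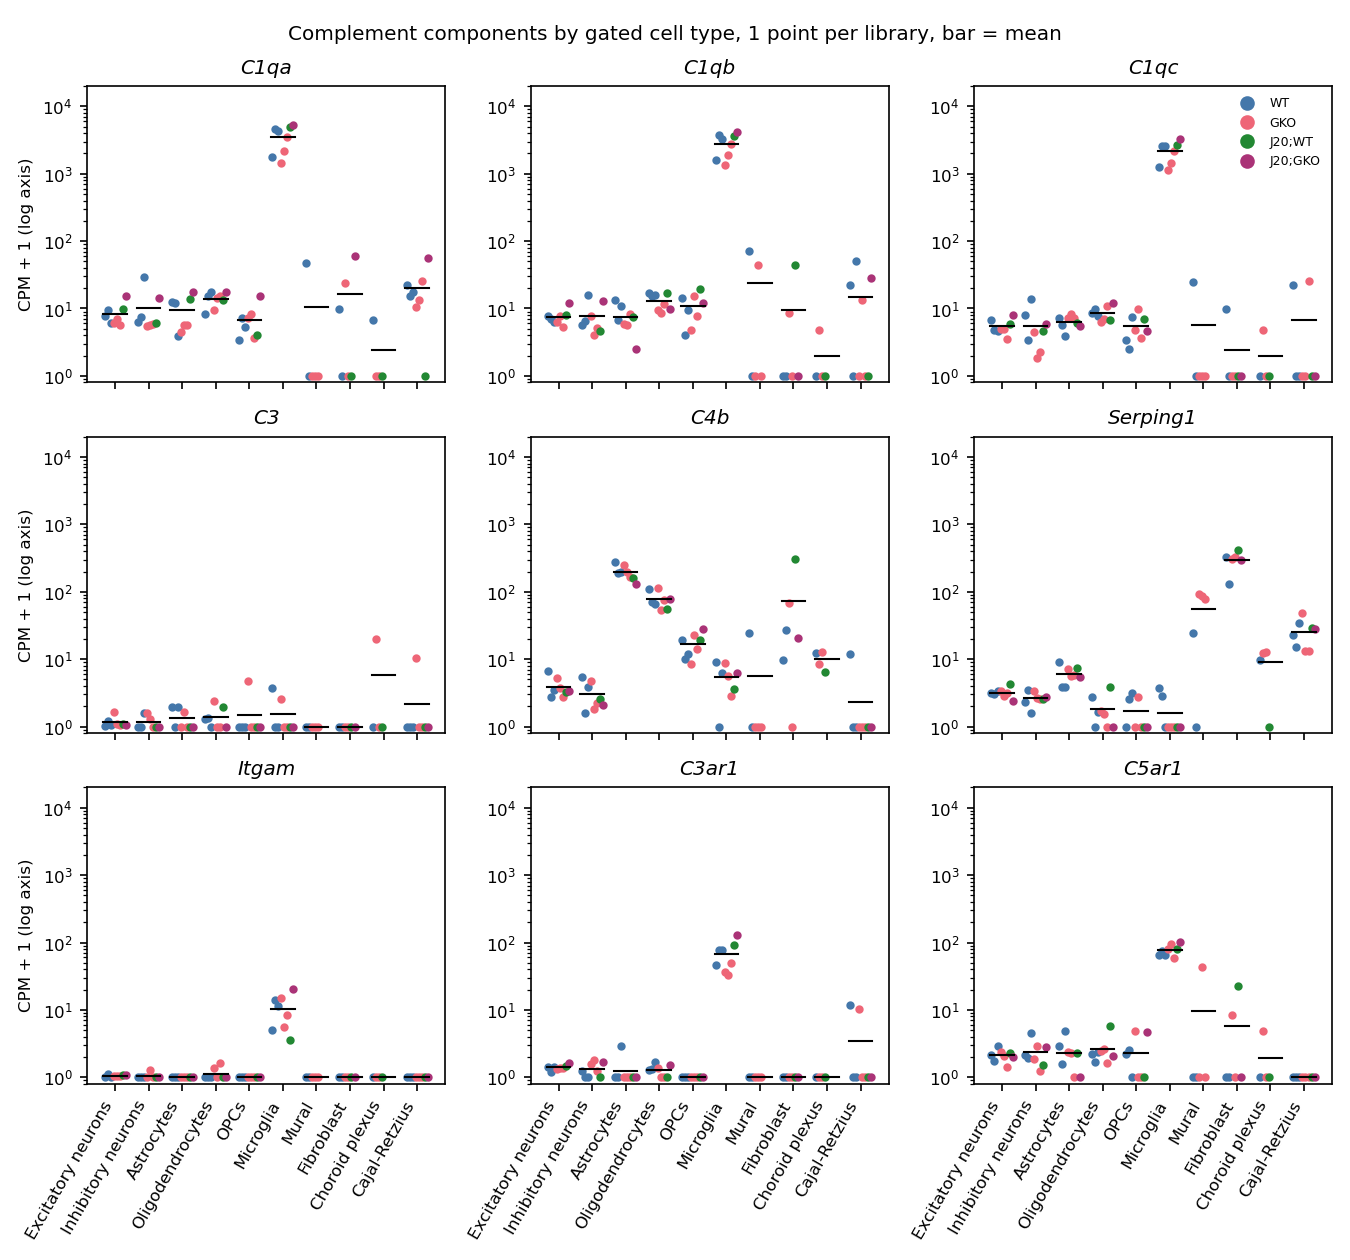
Level of each of the 9 components (CPM + 1, log axis) in the 10 cell types with at least 10 nuclei in 4 or more libraries; each point is 1 library, coloured by group, and bars are means. C1qa, C1qb and C1qc sit above 1000 CPM only in microglia among the types plotted, C4b is highest in astrocytes and Serping1 in fibroblasts, while C3 stays near 0.

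The C1q chains moved together between libraries. Their summed microglial level was lowest in GKO 1 (3932 CPM) and WT 1 (4615 CPM), the 2 libraries of the first date, and highest in J20;GKO (12874 CPM). GKO 1, WT 1 and J20;GKO are also the libraries with high Xist. The summed level of the 11 gating markers was also lowest in WT 1 and GKO 1, at 13738 and 13987 CPM, and it reached 21570 CPM in J20;WT. WT 1 and GKO 1 also had 1009 and 1064 CPM of Ttr, a choroid plexus transcript, in microglia, but J20;WT, with the second highest C1q sum (11188 CPM), had 640 CPM, and GKO 2, with a low sum (5495 CPM), had 0. WT 2, WT 3, GKO 3 and J20;GKO had 5.61, 7.84, 138 and 1.74 CPM. The part of these in the C1q level was not tested. The ratio of C1qa to C1qb UMIs was 1.06 and 1.10 in GKO 1 and WT 1 and 1.13 to 1.34 in the other 6 libraries.

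**Figure D2:**
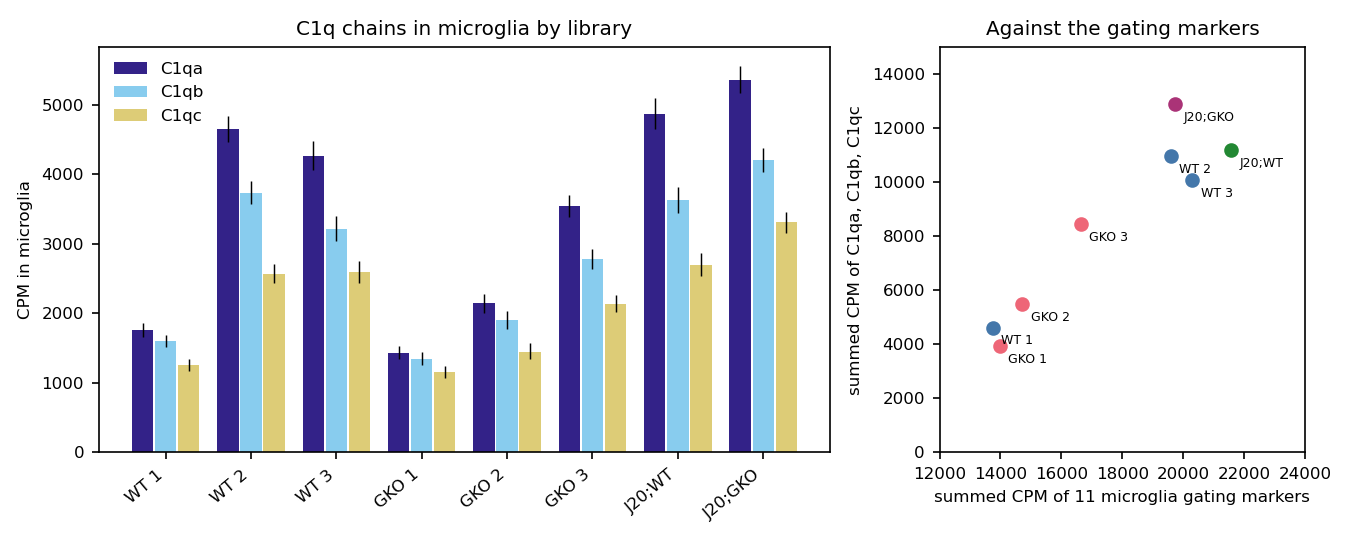
Left, CPM of C1qa, C1qb and C1qc in microglia of each library, with 95% Poisson intervals as error bars (counting error only); right, the summed CPM of the 3 chains against the summed CPM of the 11 microglial gating markers, 1 point per library (the x axis does not start at 0). WT 1 and GKO 1 lie lowest on both axes, and J20;GKO has the highest C1q.

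Microglia and border macrophages are both known C1q producers. The 52 border macrophage nuclei held C1qa at 2899 CPM (95% Poisson interval 2612 to 3208), C1qb at 2054 and C1qc at 1953 CPM when the 8 libraries were summed. These sums fall within the range of the microglial libraries for every chain. C5ar1 stood at 388 CPM (288 to 511, 50 UMIs) in border macrophages, with 242 to 813 CPM in the single libraries, whereas microglia ranged from 57.7 to 101 CPM. C3ar1 was at 155 CPM (94.7 to 239, 20 UMIs) and C4b at 302 CPM (215 to 413, 39 UMIs) in border macrophages, against 4.42 CPM of C4b in microglia. Only 1 library had 10 or more border macrophages, so no test was made between the 2 types.

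Of the 4906 UMIs of C4b, the mouse gene for C4, 47.0% were in astrocytes and 28.6% in oligodendrocytes, shares that depend on the number of nuclei. The 52 summed border macrophages, at 302 CPM on 39 UMIs as given above, are left out of the order of types below. Astrocytes held 279, 190 and 199 CPM in WT, 247, 198 and 167 CPM in GKO, 158 CPM in J20;WT and 132 CPM in J20;GKO, a mean of 196 ± 47.8 CPM (SD, n = 8). Oligodendrocytes held 110, 70.3 and 65.4 CPM in WT, 114, 52.8 and 75.2 CPM in GKO, 54.0 CPM in J20;WT and 77.8 CPM in J20;GKO, a mean of 77.4 ± 23.1 CPM. Astrocytes were above oligodendrocytes in 8 of 8 libraries, and the ranges of the 2 types did not overlap. In both types the libraries of the first date, which also had high Xist, were the highest. OPCs (15.8 ± 6.74 CPM) came below. Fibroblasts varied from 0 to 304 CPM and are not placed in this order. The 304 CPM came from 14 UMIs in the 18 fibroblasts of J20;WT. Microglia (4.42 ± 2.82 CPM), excitatory (2.90 ± 1.33 CPM) and inhibitory neurons (2.07 ± 1.46 CPM) did not differ from each other beyond their spread.

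Against all other gated nuclei, C4b was higher in astrocytes by 4.38 ± 0.15 (log2, SE; adjusted p = 3.08e-11, edgeR) and in oligodendrocytes by 2.54 ± 0.12 (adjusted p = 3.34e-12). The direct contrast put astrocytes above oligodendrocytes by 1.32 ± 0.10 (log2, SE; adjusted p = 6.13e-11). In astrocytes, 2 of 7 tested components were higher, C4b and Serping1, and the 5 others were lower, where 28.2% of all genes were called higher and 36.1% lower. In oligodendrocytes C4b was the only 1 of 8 that was higher and 6 were lower, where 30.1% and 40.4% of all genes were called. In the direct contrast C4b and Serping1 were higher in astrocytes and C1qa and C1qb lower among 5 tested, where 32.7% of genes were higher and 30.7% lower. The call of C1qa rested on single libraries and was lost without any 1 of WT 2, WT 3, GKO 1, GKO 2 and GKO 3. Without WT 1, Serping1 did not pass the filter on low counts and was not tested. C4b reads can be shared with its near-identical neighbour C4a, which was not analysed here.

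Astrocytes with a UMI of Gfap, an intermediate filament gene of astrocytes, held more C4b than those without, a split chosen after the levels had been seen. Of WT 1 astrocytes, 245 had a Gfap UMI and 196 did not, so the split does not set apart a small subset. The level was 259 ± 51.9 CPM (SD, n = 8) with Gfap and 110 ± 35.7 CPM without. All 8 libraries went the same way, from 353 against 158 CPM in WT 1 to 179 against 42.8 CPM in J20;GKO. The mean log2 difference was 1.28 ± 0.35 (SD), with p = 0.00781 in an exact two-sided sign-flip permutation test, the smallest that 8 libraries allow. Nuclei with Gfap also had more UMIs in every library, with medians of 4510 against 4075.5 in WT 1, and the part of depth in the split was not tested.

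**Figure D3:**
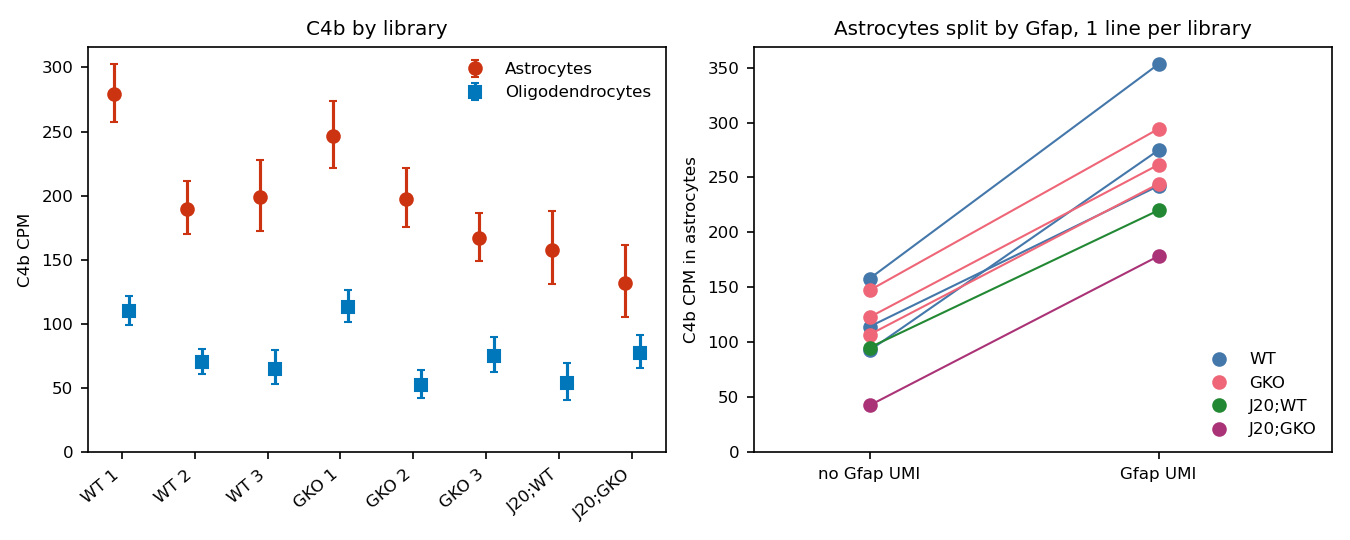
Left, C4b CPM in astrocytes and oligodendrocytes of each library with 95% Poisson intervals (counting error only); right, C4b CPM in astrocytes without and with a Gfap UMI, 1 line per library coloured by group. Astrocytes lie above oligodendrocytes in every library, WT 1 and GKO 1 are highest in both types, and every line rises from the nuclei without to those with Gfap.

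C3, the hub of the cascade, was close to absent in nuclei of this tissue: 73 UMIs were found in all libraries together, and 46 of them came from GKO 1. Microglia held 3 and astrocytes 4 of them. Its highest level, 443 CPM (95% Poisson interval 212 to 815, counting error only), was in the 3 nuclei with ependymal markers, which held 10 UMIs. The nuclei came 1 each from WT 2, GKO 1 and GKO 2, and most of the 10 UMIs lay in the GKO 1 nucleus. The value therefore rests mostly on 1 nucleus and is not a level of the type. In microglia the pooled C3 level was 0.708 CPM, at the limit that 3 counts give at this depth, so a low level in microglia was not detectable.

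Serping1, the C1 inhibitor, was highest in fibroblasts at 300 ± 92.4 CPM (SD, n = 6 libraries with at least 10 fibroblasts), followed by mural nuclei at 55.5 ± 41.2 CPM (n = 5). The mural mean rests on 1, 0, 2, 2 and 2 UMIs in WT 1, WT 2, GKO 1, GKO 2 and GKO 3, each below the limit of 3 counts. WT 1, WT 2, GKO 1, GKO 3, J20;WT and J20;GKO fibroblasts held 330, 131, 301, 324, 412 and 299.6 CPM, so WT 2 was the low library and the other 5 lay close. In libraries with both types fibroblasts were above mural nuclei in 4 of 4. Of all 824 Serping1 UMIs fibroblasts held 19.3% and the far more numerous excitatory neurons 40.0%. Cajal-Retzius cells held 24.6 ± 12.1 CPM with UMIs in 8 of 8 libraries, and astrocytes 5.04 ± 1.79 CPM. The 52 border macrophages had 0 Serping1 UMIs, but with 129024 UMIs of all genes they cannot be placed below astrocytes. The Cajal-Retzius level came from 5 UMIs in GKO 1 and 1 or 2 in each other library. Against all other gated nuclei Serping1 was higher by 6.35 ± 0.31 in fibroblasts (log2, SE; adjusted p = 4.09e-91, edgeR) and by 3.25 ± 0.79 in mural nuclei (adjusted p = 0.000378).

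In fibroblasts Serping1 was the only 1 of 7 components that was higher, and the 3 C1q genes were lower, where 9.93% of all genes were called higher and 24.3% lower. In mural nuclei Serping1 was likewise the only 1 of 7 that was higher, and C1qa and C1qc were lower, where 4.65% and 17.5% of genes were called. Without WT 2 neither of these was called, at log2 fold changes of -2.23 and -2.69. In OPCs 0 of 8 components were higher and 6 were lower, where 20.0% and 30.2% of genes were called. The call of C4b among these 6, at -0.48, was lost with library size alone and without WT 1, WT 2 or GKO 1, where it was at -0.39, -0.40, -0.37 and -0.25.

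Itgam, the alpha chain of complement receptor 3, could hardly be measured. Its usual identifier had 1 UMI in all nuclei, and a second one, listed under the same symbol and named Gm49368 in GENCODE vM21, had 57, of which 40 were in microglia. On chromosome 7 the second gene model covers 99.9% of the span of the first and shares 68.7% of its exonic bases, so reads that match both cannot be assigned to 1 of them. With both rows added, microglia held 9.40 ± 5.74 CPM and the next type, oligodendrocytes, 0.123 CPM. The second row was higher in microglia than in all other gated nuclei by 7.01 ± 0.48 (log2, SE; adjusted p = 1.02e-21, edgeR). Its partner Itgb2, the beta chain, stood at 107 ± 18.9 CPM in microglia.

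The anaphylatoxin receptors C3ar1 and C5ar1 were found in microglia and, as given above, in the few border macrophages. C3ar1 stood at 45.0, 76.7 and 75.8 CPM in WT, 35.4, 32.2 and 48.4 CPM in GKO, 90.3 CPM in J20;WT and 130 CPM in J20;GKO microglia, and at 2.52 CPM or less in the 9 other types, border macrophages aside. The WT and GKO ranges overlapped, since WT 1 lay below GKO 3, and both J20 libraries lay above the other 6. C5ar1 reached 8.58 CPM at most in those 9 types, a mean of mural nuclei that rests on 1 UMI. It stood at 64.1, 73.0 and 65.3 CPM in WT, 78.4, 94.2 and 57.7 CPM in GKO, 80.0 CPM in J20;WT and 101 CPM in J20;GKO microglia, with overlapping groups. Against all other gated nuclei the log2 fold change in microglia was 6.72 ± 0.23 for C3ar1 and 5.47 ± 0.18 for C5ar1 (adjusted p = 3.43e-39 and 5.27e-39, edgeR). Of thinned microglia 6.30% had a C3ar1 UMI and 7.63% a C5ar1 UMI, and of thinned astrocytes 0 of 2597 and 0.154%. The count of 0 allows up to 0.116% when set to 3 counts, and 0.142% as the upper end of the exact binomial interval.

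**Figure D4:**
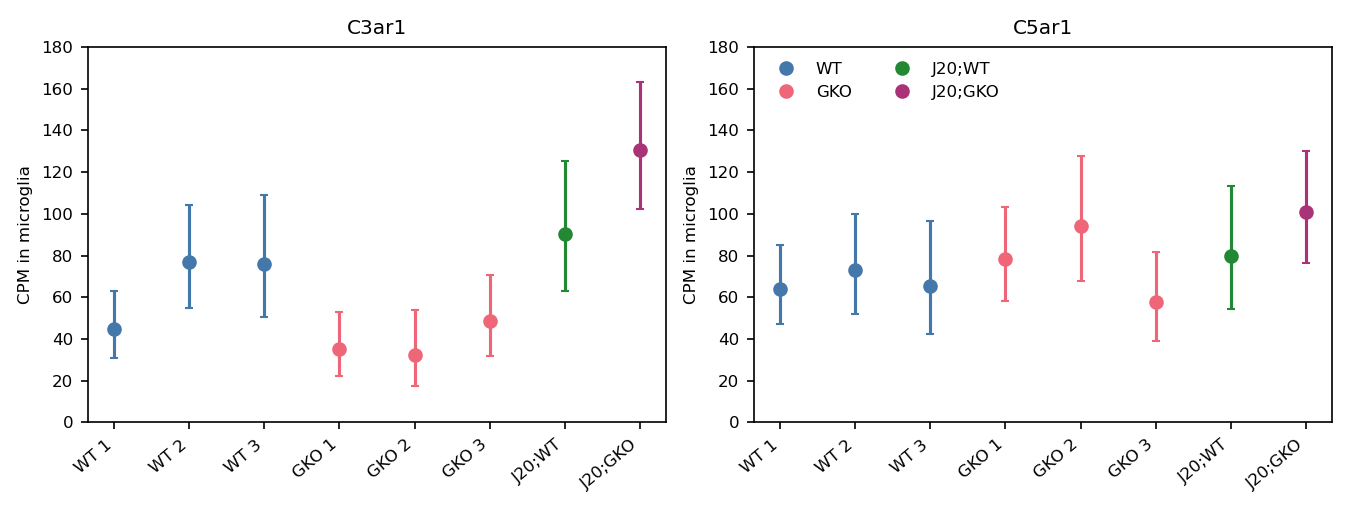
CPM of C3ar1 (left) and C5ar1 (right) in microglia of each library, coloured by group, with 95% Poisson intervals as error bars (counting error only). For C3ar1 the J20;WT and J20;GKO libraries stand at 90.3 and 130 CPM above the 6 others, and for C5ar1 the groups overlap.

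Whether loss of Gsap altered these genes was asked within each cell type, 3 GKO against 3 WT mice. A call needed a fold change past 0.3 on the log2 scale together with an adjusted p under 0.05. No component reached this in any of 5 types with components tested, and the share of all genes called was 0% in excitatory neurons, inhibitory neurons, astrocytes, oligodendrocytes and microglia alike. In microglia, 205 of 7927 genes and 1 of 5 components had an unadjusted p under 0.05 with edgeR, 94 genes and 1 component with DESeq2. In excitatory neurons, inhibitory neurons, astrocytes and oligodendrocytes 193, 151, 215 and 149 genes had such a p with edgeR, and DESeq2 called 0 genes in any of the 5 types. The component with such a p in microglia was C3ar1, at 65.8 ± 18.0 CPM (SD, n = 3) in WT and 38.6 ± 8.59 CPM in GKO. Its log2 fold change was -0.74 ± 0.29 (SE), with an adjusted p of 0.999 by edgeR. C1qa was at 3557 ± 1567 CPM in WT and 2370 ± 1072 CPM in GKO (log2 fold change -0.60 ± 0.48 SE, adjusted p = 0.999), and the SE of each C1q chain was over 0.3.

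Libraries of the same replicate number came from the same date, but numbers 2 and 3 share 1 date and no label pairs their libraries. In each of the 3 numbered pairs the GKO library had the lower C1qa level, 1431 against 1761, 2142 against 4645 and 3538 against 4265 CPM. With the replicate number as a block, the C1qa fold change was -0.57 ± 0.16 (log2, SE) with an adjusted p of 0.438 (edgeR), and 4 of 5 components had an unadjusted p under 0.05 (C1qa, C1qb, C1qc and C3ar1), among 480 of 8539 genes. With date in place of the number (the batch term), C1qa was at -0.54 ± 0.16 (log2, SE), with an adjusted p of 0.513 by edgeR. No component was called under the block, and none in microglia under the batch term. The microglial gating markers were at 13738, 19581 and 20299 CPM in WT and at 13987, 14712 and 16640 CPM in GKO, lower in GKO for numbers 2 and 3 and not for number 1. Their part in the C1q difference was not tested.

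The share of thinned microglia with a C3ar1 UMI stood at 5.26%, 8.48% and 7.87% across the WT mice. The GKO mice had 3.00%, 2.64% and 4.03%, with no overlap between the groups. The p was 0.1 in an exact two-sided permutation test, the smallest that 3 against 3 allows, and 0.5 after adjustment over 5 genes. Without thinning the shares were 11.9% and 6.38%. The same test gave p of 0.5, 0.8, 0.3 and 0.8 for C1qa, C1qb, C1qc and C5ar1. C4b stood at 223 ± 49.2 CPM in WT and 204 ± 40.2 CPM in GKO astrocytes (log2 fold change -0.13 ± 0.19 SE) and at 81.9 ± 24.5 and 80.5 ± 30.7 CPM in oligodendrocytes.

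The J20 libraries were compared with the 6 others in a fit with Gsap genotype as a covariate, a contrast of 2 mice aged 6 mo with 6 mice aged 7 mo in which age and transgene cannot be told apart. Date, which was not in the fit, is mixed in too. J20;WT has a date of its own, and J20;GKO shares that of WT 2, WT 3, GKO 2 and GKO 3. No component was called in any of 6 cell types. The share of all genes called was 0.354% in excitatory neurons, 0.00834% in astrocytes, 0.0172% in oligodendrocytes, 0.0316% in OPCs and 0% in inhibitory neurons and microglia. In microglia 544 of 8855 genes had an unadjusted p under 0.05 with edgeR and 302 with DESeq2, which called 1 gene. C3ar1 had the lowest p of the components there, with a log2 fold change of 1.20 ± 0.29 (SE) and an adjusted p of 0.458 by edgeR, and both J20 libraries were above all 6 others. Without J20;GKO the value was 0.51 and without J20;WT 1.77, so J20;GKO carried much of it.

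C1qa was at 0.86 ± 0.47 (log2, SE; adjusted p = 0.861, edgeR) in J20 microglia, and 0.56 without the 2 libraries of the first date. Without J20;GKO it was 0.46 and without J20;WT 1.20. Both J20 libraries lay above the other 6 for C1qa and C1qc, at 4867 and 5360 CPM and at 2693 and 3309 CPM, but WT 2 overlapped for C1qb. C4b in J20 astrocytes was at -0.56 ± 0.19 (log2, SE; adjusted p = 0.72, edgeR), with both J20 libraries below all 6 others, and at -0.39 without the 2 libraries of the first date. C1qa in excitatory neurons was 8.74 CPM in J20;WT and 14.2 CPM in J20;GKO and 4.66 to 8.39 CPM in the 6 others (log2 fold change 0.89 ± 0.25, adjusted p = 0.175 with edgeR and 0.0155 with DESeq2, the only component that DESeq2 called). In these libraries 1 excitatory nucleus held 27 of 114 C1qa UMIs in J20;WT and 1 held 29 of 200 in J20;GKO. Their part in the difference was not tested.

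Between the single J20;GKO and J20;WT mice no test was made, and the intervals cover counting error only. The 2 libraries differ in date and in Xist (2945 and 0 CPM in microglia), which cannot be told apart from genotype here. C1qa, C1qb and C1qc were at log2 ratios of 0.14 (95% interval 0.06 to 0.22), 0.21 (0.12 to 0.31) and 0.30 (0.19 to 0.41), all below the largest difference of 1.05 to 1.40 between 2 mice of one genotype, which includes pairs of different dates. C3ar1 was at 0.52 (-0.07 to 1.15) and C5ar1 at 0.32 (-0.32 to 1.01). C4b was at -0.26 (-0.67 to 0.15) in astrocytes and 0.52 (0.08 to 1.00) in oligodendrocytes, where mice of one genotype differed by up to 1.10.

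The rest of the pathway was described with 42 other complement genes, of which 41 were in the tables and 28 had 200 or more UMIs in all nuclei. By mean CPM, mural nuclei led for 7 of these 28, fibroblasts for 5, microglia for 4, OPCs, choroid plexus and Cajal-Retzius cells for 3 each, astrocytes for 2 and excitatory neurons for 1. Of the mural leads, only Colec12 and Vtn had a mean well above its SD. Mural nuclei held 178831 UMIs in all, so a lead there or in another small type can rest on few UMIs. Of the initiators, Colec12, a scavenger receptor of the collectin family, was at 1327 ± 457 CPM (SD, n = 5) in mural nuclei and 642 ± 212 CPM (n = 6) in fibroblasts. Masp1, a protease of the lectin arm, led in OPCs at 56.0 ± 12.3 CPM (n = 8), with inhibitory neurons next at 21.5 ± 7.25 CPM. Masp2, its partner protease, led in Cajal-Retzius cells at 18.7 ± 24.6 CPM, a spread larger than the mean. Cfp, properdin of the alternative pathway, had means of 18.6 ± 25.5 CPM in mural nuclei and 14.2 ± 2.60 CPM in inhibitory neurons, which did not differ beyond their spread. Cfb and Cfd, the other alternative pathway genes, had 1 and 5 UMIs in all. The terminal components C6, C8g and C9 were at 5.07, 9.42 and 7.32 CPM in their leading types, with SDs above these means.

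Among regulators, Vtn, vitronectin, reached 13196 ± 4830 CPM (n = 5) in mural nuclei and 1116 ± 1062 CPM in fibroblasts. Csmd1, a large membrane protein with complement-inhibiting domains, was at 4451 ± 428 CPM in OPCs and 4219 ± 370 CPM in excitatory neurons. Its relative Csmd3 was highest in microglia at 3914 ± 754 CPM, above OPCs at 2368 ± 275 CPM. Clu, clusterin, fell outside the naming rule and was picked after its values were seen. It was at 3506 ± 559 CPM in astrocytes against 388 ± 194 CPM in choroid plexus. Among receptors, Itgb2 and the second C5a receptor C5ar2 (48.4 ± 22.8 CPM) led in microglia, and Cr2, complement receptor 2, in astrocytes at 31.7 ± 5.70 CPM.

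**Figure D5:**
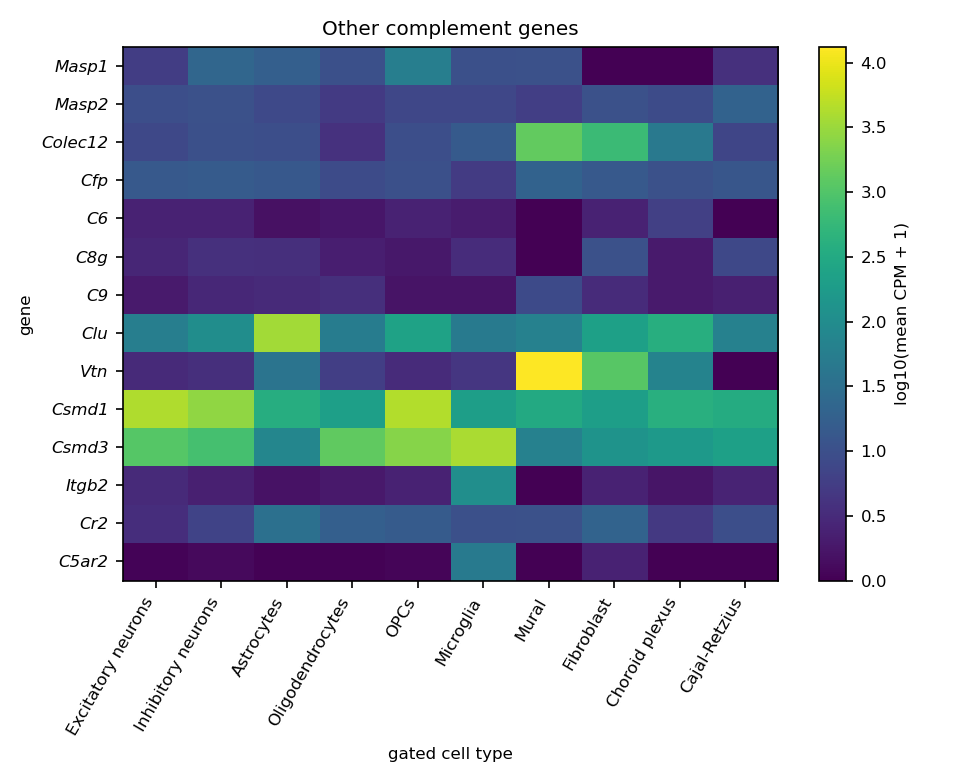
Heat map of log10(mean CPM + 1) for 14 other complement genes with at least 200 UMIs, the 13 chosen by the naming rule and Clu (rows, in order of role), across 10 cell types (columns); brighter is higher. Vtn and Colec12 are brightest in mural nuclei, Clu in astrocytes, Csmd1 in OPCs and excitatory neurons, and Csmd3, Itgb2 and C5ar2 in microglia.

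In microglia 30 of these genes were tested against all other nuclei, 6 were higher, among them Cr1l, C5ar2, Itgax, Itgb2 and Csmd3, and 11 lower. The median log2 fold change of the 30 was -0.74 and that of all genes tested -0.26. In astrocytes 6 of 33 were higher and 13 lower, in oligodendrocytes 7 of 29 and 16, in OPCs 6 of 33 and 7, in mural nuclei 3 of 28 and 5, and in fibroblasts 6 of 27 and 6. The shares of all genes called in these contrasts are those given above, such as 28.2% and 36.1% in astrocytes, 30.1% and 40.4% in oligodendrocytes and 20.0% and 30.2% in OPCs. Between GKO and WT and between J20 and the other libraries, 0 of them were called in any cell type by edgeR. In microglia 0 of 8 tested had an unadjusted p under 0.05 for GKO against WT, and 1 of 10 for J20. For J20 the count was 9 of 31 in excitatory neurons, where 2446 of 18055 genes had such a p, and 4 of 15 in astrocytes, where 786 of 11984 did.

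Genes whose level followed a component most closely were ranked over 73 sums of a cell type in a library, which share libraries and depth, so the correlations are a description. Other components and gating markers were left out of the ranking, and C1qc had r of 0.89 with C1qa. For C1qa the nearest were Il10ra, Cd300a and Il21r (Pearson's r of 0.89 each), for C1qb Laptm5, Rhoh and Abcc3 (0.89, 0.88 and 0.88) and for C1qc Cd300c2, Cd300a and Nckap1l (0.94, 0.93 and 0.93). For C3ar1 they were Il1rl2, Gm46224 and Cd48 (0.95, 0.95 and 0.94) and for C5ar1 Psmb9, Abcc3 and Cd86 (0.89, 0.89 and 0.88). C4b was closest to Apoe, the apolipoprotein E gene, at 0.81, then Fgd6 and Sdc4 at 0.78 and 0.77. Serping1 was closest to Zic2, Cyp1b1 and Col23a1 (0.79, 0.79 and 0.78). C3 and Itgam had under 200 UMIs and were not ranked.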

How the data were processed

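Nuclei of the hippocampus were profiled by the 10x method. As the authors state, Cell Ranger (version 3.0.2 per the file headers) was run against mm10, and the deposited values are its raw UMI counts for each gene in each nucleus, not normalized. Whether intronic reads were counted is not given in the sources used here. Nuclei with 200 to 7500 genes and at most 5% mitochondrial UMIs were kept, as in the study (32041 of 33314). Each was given a cell type when it held at least 3 different markers and 4 marker UMIs of that type and passed a marker rate per 10000 UMIs. The rates were set after seeing the data. Nuclei with markers of more than 1 type (2.30%) were left out, which is how doublets were treated, and no doublet caller was run. The 11.6% with no type were left out too.

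Counts were summed per type and library where at least 10 nuclei were present, and tested with edgeR 4.0.16 (TMM, filterByExpr, robust quasi-likelihood, Benjamini-Hochberg over all genes) in R 4.3.3, with library as a block between types. Calls used the study's thresholds of 0.05 for the adjusted p and 0.3 for the size of the log2 fold change. Between border macrophages or endothelial nuclei and other types no test was made, since fewer than 4 libraries had 10 nuclei. Shares were thinned to 1000 UMIs per nucleus and single values were compared by exact permutation tests (scipy 1.17.1). DESeq2 1.42.0 was an alternative, as were other scalings, filters, gates, a replicate block and leaving out each library. Dates were read from the names of the deposited files. Deviations from the group means correlated at 0.270 to 0.730 between WT and GKO libraries of the same number in microglia, astrocytes and oligodendrocytes. WT 2, WT 3, GKO 2 and GKO 3 share a date. Within it, libraries of the same number correlated at 0.270 to 0.418 and those of other numbers at 0.210 to 0.527. Libraries of different dates correlated at -0.618 to -0.337. Pairing by number is therefore not told apart from date here, and the replicate block uses numbers that no label ties to paired mice. The members and lists were chosen with earlier results of these data known. Named genes were the 9 components, Gsap and Xist as checks, up to 3 other complement genes per role with the highest mean in a type, and the 3 genes most like each component among those with 200 or more UMIs. The values of 1 gene of the list are not reported here. The statistics were tested on simulated data. The study's methods describe the animals as littermates of both sexes from in vitro fertilization, and the labels do not tie single mice to litters.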

Additional observations from a re-analysis of the deposited data

Results flagged for a closer look

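Among the components and other complement genes tested, Csmd1, a membrane protein with complement-inhibiting domains, was the only one flagged, in microglia. The flag was for a GKO effect that differed between the J20 and the other libraries. The difference of the log2 fold changes was -2.28 (edgeR interaction term). Its size was not particular to Csmd1. Clu was at -2.29 in microglia, and the components and other complement genes tested there ran from -4.86 for Colec12 to 2.60 for Itgam. On the J20 side the interaction term compares 1 mouse with 1, so that the spread comes from the WT and GKO libraries alone. A difference between single mice cannot be told from one of genotype here. The 2 J20 libraries also differ in date and in Xist, which cannot be told apart from genotype. Csmd1 stood at 259, 140 and 159 CPM in WT, 204, 207 and 190 CPM in GKO, 405 CPM in J20;WT and 88.7 CPM in J20;GKO microglia. It was at 3685 to 4685 CPM in excitatory neurons, whose 7 markers were detected in the microglia of every library at a summed 191 to 307 CPM, with 294 CPM in J20;WT and 198 CPM in J20;GKO. Their part in the Csmd1 difference was not tested.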

How the results depend on the processing

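The calls of C1qa, C1qb, C1qc, C3ar1, C5ar1 and the second Itgam row as higher in microglia, of C4b as higher in astrocytes and oligodendrocytes and of Serping1 as higher in fibroblasts and mural nuclei held under every alternative run. With the stricter filter on nuclei 1 component was lower in microglia and 1 higher in astrocytes, where Serping1 lost its calls (2 each in the fit reported), C5ar1 lost its lower calls in astrocytes (-0.34) and oligodendrocytes (-0.78), and 1 higher and 0 lower in astrocytes against oligodendrocytes. Scaling by library size alone gave 0 lower in mural nuclei, 2 higher in fibroblasts and 1 lower in astrocytes against oligodendrocytes, DESeq2 size factors gave 2 higher in fibroblasts, and the stricter gate gave 1 lower in mural nuclei. Leaving out each library in turn gave 0 (without WT 2) to 3 (without WT 1) lower in mural nuclei, 1 to 2 higher in fibroblasts (2 without WT 1, GKO 3 or J20;GKO), and 1 to 2 in each direction for astrocytes against oligodendrocytes.

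For J20, the counts of all genes called in excitatory neurons, inhibitory neurons, astrocytes, oligodendrocytes, OPCs and microglia were 64, 0, 1, 2, 3 and 0. They were 138, 2, 76, 115, 11 and 50 with no filter on low counts, where C3ar1 became the 1 component called in microglia (log2 fold change 1.18). DESeq2 gave 642, 10, 15, 20, 6 and 1, with 1 component called in excitatory neurons. Without the Gsap covariate 117 and 1 were called in the neurons. Without the 2 libraries of the first date, an alternative chosen after seeing the data, 103 were called in excitatory neurons, 6 in astrocytes, 52 in oligodendrocytes, 9 in OPCs and 7 in microglia, and C4b in oligodendrocytes went from -0.30 to 0.019 on the log2 scale. The stricter filter on nuclei gave 0, 1 and 6 in astrocytes, oligodendrocytes and OPCs. Leaving out each library gave 8 (without GKO 2) to 81 in excitatory neurons (38 without WT 3, 24 without J20;GKO), 0 to 3 in astrocytes and in oligodendrocytes, 3 to 5 in OPCs and 0 to 15 (without J20;GKO) in microglia, and 0 to 1 (without GKO 1) for GKO against WT in inhibitory neurons.

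The replicate block changed no call of a component between GKO and WT. C4b in GKO oligodendrocytes was at 0.00 on the log2 scale and changed sign to -0.0311 with the replicate block, to -0.020 with a batch term, to -0.025 with library size alone and to -0.011 with the stricter gate, and ran from -0.36 to 0.29 with each library left out. In astrocytes it went to 0.069 without WT 1 (range -0.29 to 0.069). C4b in OPCs against other nuclei went from -0.48 to 0.019 with the stricter filter on nuclei. The GKO minus WT share of microglia with a UMI ran from -12.8 to 2.81 percentage points for C1qa, -11.7 to 5.34 for C1qb and -0.51 to 1.82 for C5ar1 with each library left out. The cause of these moves was not tested.

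With 3 mice a group and a single mouse for each J20 genotype, no permutation p under 0.1 was possible between GKO and WT. Depth limits C3 (73 UMIs) and Itgam (58 UMIs), for which differences between groups were not detectable, and the border macrophages, of which libraries held 3 to 10.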
